A study of Drosophila melanogaster with 9 samples.

Results

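Ribosomal proteins are mostly encoded by single genes in Drosophila melanogaster, but a few have a second gene copy. Both copies of 4 such proteins were examined in ovaries: RpS19a and RpS19b, RpS10a and RpS10b, RpL22 and RpL22-like, and RpL10Aa and RpL10Ab. They were found by matching FlyBase gene IDs in the count tables to these 8 symbols in Ensembl's BDGP6 annotation. Of 17024 IDs, 7 matched. RpS10b had no row under its annotated ID and was not analysed here. A total of 3 pairs could therefore be compared copy against copy.

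The study used RNA immunoprecipitation, in which an antibody to a protein brings down the RNA bound to it. All 9 libraries came from ovaries of the genotype aramis::GFP::FLAG, dissected 1 to 3 days after eclosion, so the control libraries carried the tagged protein too. There were 3 replicates each of Input (lysate set aside before the pulldown, 10% of the total), IgG (pulldown with control mouse IgG) and IP (pulldown with an antibody against FLAG). Aramis is an RNA helicase, and the series title ties it to the control of translation and of ribosome production in germline stem cell differentiation. Titles and genotype give aramis as the protein carrying the tag, and were followed, although the design text speaks of Larp. The IgG libraries were the least alike as replicates, with a biological coefficient of variation of 0.546 in the fit of IgG and Input and 0.596 in that of IP and IgG, against 0.151 for IP and Input. The promoter that drives the tagged protein was not given in the sources used here.

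A ribosome holds 1 molecule of most of its proteins, so the products of a gene and its copy compete for the same place. RpS19 and RpS10 sit in the head of the small subunit, and RpS19 is needed for maturation of the small subunit's RNA. RpL22 and RpL10A belong to the large subunit, and RpL10A forms the stalk through which spent tRNAs leave. In flies RpS19b is known from the female germline, and RpL22-like is known from the testis. A whole ovary holds both germline and somatic cells, and fewer cells of a type and less RNA per cell cannot be told apart in these libraries.

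Whether reads can be assigned to one copy depends on how far the copies have diverged. The coding sequences of RpS10a and RpS10b were the most alike, with 75.4% identical bases and 77.1% identical residues over the alignment. The share of identical coding bases was 67.1% for RpS19b and RpS19a, 65.7% for RpL10Aa and RpL10Ab, and 62.8% for RpL22-like and RpL22. RpL22-like and RpL22 had the least similar proteins, with 50% identical residues. The longest run of identical coding bases was 26 in the RpS10 pair, 20 in the RpL10A pair, 17 in the RpS19 pair and 12 in the RpL22 pair. No stretch of 36 or more bases was shared between the annotated transcripts of any pair. To show the extent of this similarity, the 60 coding bases around the longest identical run are given for the RpS19 pair and the RpL10A pair, from the dm6 genome, 5′ to 3′ on the coding strand, with differing bases in capitals. The RpS19b stretch lies at chr3R:23933115-23933174 (minus strand) and the RpS19a stretch at chrX:16638556-16638615 (plus strand). The RpL10Aa stretch lies at chr3R:15037987-15038046 and the RpL10Ab stretch at chr3L:11824064-11824123, both on the plus strand.
RpS19b: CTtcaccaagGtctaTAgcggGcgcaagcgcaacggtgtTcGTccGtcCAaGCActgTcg
RpS19a: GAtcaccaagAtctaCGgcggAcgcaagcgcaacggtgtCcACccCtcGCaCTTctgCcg
RpL10Aa: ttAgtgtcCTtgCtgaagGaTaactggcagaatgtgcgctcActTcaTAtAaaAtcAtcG
RpL10Ab: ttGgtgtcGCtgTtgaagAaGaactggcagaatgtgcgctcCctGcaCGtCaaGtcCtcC
Even around their longest identical runs the RpS19 copies differed at 16 positions and the RpL10A copies at 14. The RpS10 copies, whose stretch is not printed, differed at only 5.

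The starts of the genes differed as well. Most ribosomal protein genes of animals begin transcription within a run of pyrimidines (C and T), which the translation machinery uses to control these mRNAs together. The longest run of C and T on the gene's strand was counted in the 30 bases centred on the annotated start, that is 15 on either side. The window is printed for 6 copies, with that run in capitals. They are shown because the length of the run separated abundant from rare copies among the 7 with a row. Other duplicated ribosomal protein genes broke this order, with 2 bases in the abundant RpS15Aa and 9 in the rare RpL37-2. The windows lie at chrX:16637879-16637908 (plus strand) for RpS19a and chr3R:23933516-23933545 (minus) for RpS19b. They lie at chrX:765116-765145 (minus) for RpL22, chr3L:11822836-11822865 (plus) for RpL10Ab, chr3R:15037351-15037380 (plus) for RpL10Aa and chr3R:27652745-27652774 (plus) for RpS10a.
RpS19a: ccaacttcacgcgccttgTTCTTTTTTCCg
RpS19b: acttgccaatcgtccaTTTTgactaaagtc
RpL22: ccgtcgcttccgccttctgTTCTTTTTCCT
RpL10Ab: ctaaaaaccgattttcaCTTCCTTTCTaaa
RpL10Aa: tacaatacaTTTCaaattttgtgcttgtag
RpS10a: gaagTTTCggtaaatactaatttaagctgg
The run was 10 bases in RpL10Ab and 11 in RpS19a and RpL22. It was 4 bases in RpS19b, RpL10Aa and RpS10a and 6 in RpL22-like. RpS10b, which had no row under its annotated ID, had a run of 10. A run of at least 8 was found at 4.76% of 13968 protein-coding starts and at 50.7% of 69 starts of single-copy ribosomal protein genes. The motif TATCGATA, a palindrome known from promoters of growth genes, was searched from 250 bases before to 50 bases after the start. It was found in RpS10b and RpL10Ab among the 8 copies, in 27.5% of promoters of single-copy ribosomal protein genes and in 9.36% of protein-coding promoters. A match is a description of the letters in the window, and an annotated start may not be the one used in the ovary.

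Input libraries showed 3 abundant copies and 4 with few or no reads. Levels between genes are compared as CPM (counts scaled to library size by the TMM method) per kb of exon. RpL10Ab had 1055 ± 44.4 CPM per kb in Input (SD, n = 3, as for all Input values here), RpS19a 823 ± 22.4 and RpL22 280 ± 16.1. The Input values of these 3 copies did not overlap between neighbours in this order. RpS19b, at 1.097 ± 0.187 CPM per kb, was the only rare copy that passed the filter on low counts. Of 8789 genes that passed it, 97.7% lay below RpL22 and 18.5% below RpS19b. RpS10a was at 0.1236 ± 0.0753 CPM per kb (10 counts in all), RpL22-like at 0.03204 ± 0.0309 (5 counts) and RpL10Aa at 0. The Input values of RpS10a and RpL22-like are too few to place these copies in order.

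**Figure D1:**
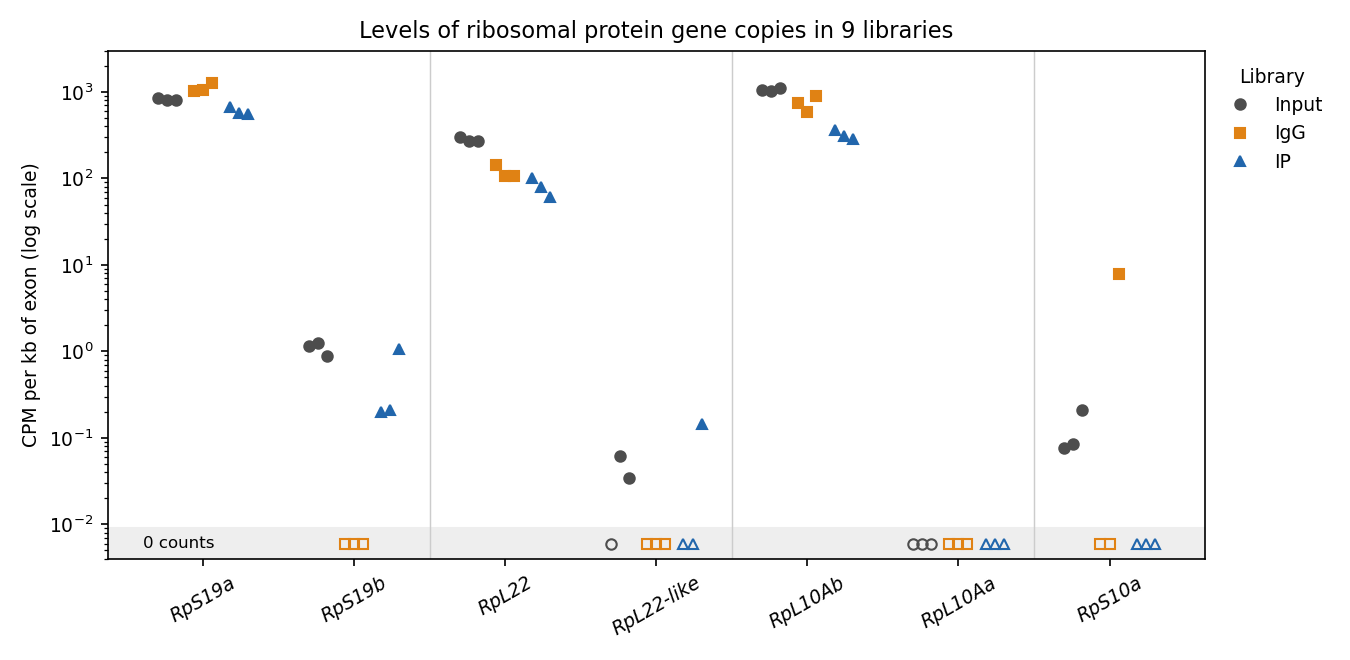
CPM per kb of exon (log scale) of 7 gene copies in each library, with Input as circles, IgG as squares and IP as triangles, and open symbols in the grey band for 0 counts. RpS19b (757.7-fold in pooled Input counts), RpL22-like and RpL10Aa lay far below their sister copies.

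**Figure D2:**
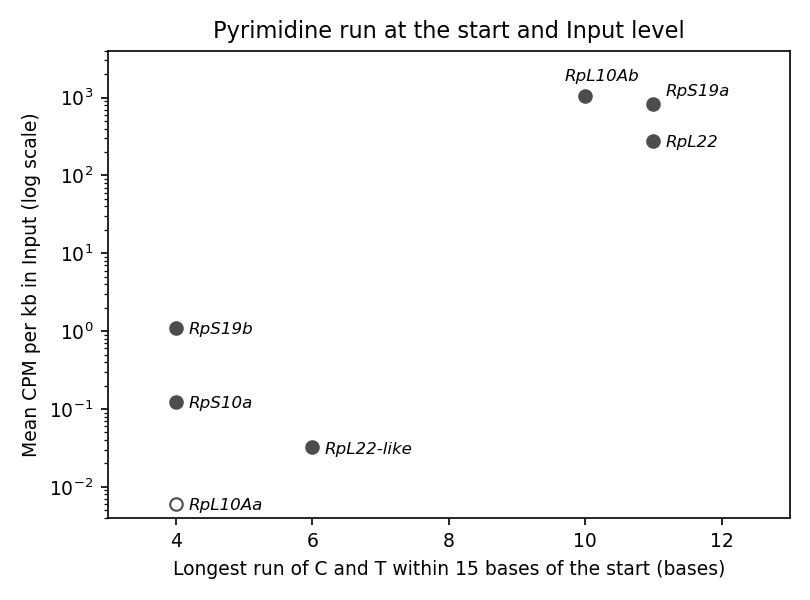
Mean Input level in CPM per kb (log scale, n = 3) against the longest run of C and T within 15 bases of the annotated start, for 7 copies, with RpL10Aa (0 counts) as an open symbol. The 3 abundant copies had runs of 10 to 11 bases and the 4 rare copies had runs of 4 to 6. Other duplicated genes, not drawn, broke this order, with 2 bases in the abundant RpS15Aa and 9 in the rare RpL37-2.

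In the RpS19 pair one copy carried nearly all the reads. RpS19a (FBgn0010412) lies at chrX:16637894-16639249 on the plus strand and RpS19b (FBgn0039129) at chr3R:23932729-23933530 on the minus strand, each with 2 coding exons. RpS19a had 46064, 39991 and 48053 counts in the Input replicates. RpS19b had 33, 33 and 28, which was 0.07076% ± 0.0121 of the pair's reads (SD, n = 3). Over the pooled Input counts RpS19a exceeded RpS19b 757.7-fold per kb, with a 95% counting interval of 619.1 to 937.7. As a log2 ratio of RpS19b over RpS19a this was -9.54 ± 0.25 (SD, n = 3), and it was -10.45 per kb of coding sequence, so that the fold depended on the length used.

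RpS19b was detected in Input and IP and not in IgG. It had 0 counts in each IgG library, where RpS19a had 44618, 35677 and 68433. Each count of 0 allows up to 3 counts. Against a floor of 3 counts over the IgG group, RpS19b was 25-fold higher in Input. By the same floor it was 11.9-fold higher in IP. Such floors cover the counting error of the group at 0 only, and take the higher group's counts as exact. IgG replicates could differ far more, as with RpS10a at 0, 0 and 202 counts. The fitted loss from Input to IgG was not particular to RpS19b (log2 fold change -7.84). Among other tested genes kkv had -7.69 and Ldh -7.45, and the lowest value of all was -11.6. The IP value of RpS19b rested on replicate 3, with 5, 6 and 32 counts in the 3 replicates. Their exact Poisson 95% intervals were 1.62 to 11.7, 2.2 to 13.1 and 21.9 to 45.2. Without replicate 3, with 11 counts left, IP was 4.72-fold above the IgG floor, and the error of those 11 counts is not covered. IP replicate 3 matched the Input libraries in CPM (0.716 against 0.593 to 0.836), and the other IP libraries had 0.132 and 0.141. The genes were fitted with all other genes by edgeR's quasi-likelihood test with Benjamini-Hochberg adjustment over 8789 genes, and a gene was called at an adjusted p under 0.05. In this fit, the difference of IP from Input was -1.13 on the log2 scale (SE 0.74, adjusted p = 0.2169 by edgeR). It was -2.40 and called without IP replicate 3 (adjusted p = 0.008192 by edgeR). IP against IgG was not called (adjusted p = 0.1049 by edgeR) but was with all 9 libraries in one fit (adjusted p = 0.02104 by edgeR). The lower level in IgG than in Input was called (adjusted p = 0.01492 by edgeR), but not with any Input library left out (0.06077 to 0.06443) or with the replicate number as a block (0.2311). RpS19b passed the filter on low counts through its Input libraries, so a lower value elsewhere is partly set by that filter.

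RpS19a was the only tested copy called higher in IgG than in Input. Its level rose from 1032 ± 27.8 CPM in Input to 1411 ± 167 in IgG, and was 754.7 ± 73.3 in IP. The values of the 3 groups did not overlap. The log2 change was 0.45 for IgG over Input (SE 0.093, adjusted p = 0.01556 by edgeR), -0.46 for IP over Input (SE 0.070, adjusted p = 0.0003219 by edgeR) and -0.88 for IP over IgG (SE 0.11, adjusted p = 0.002075 by edgeR). The rise in IgG was no longer called with any Input library left out (adjusted p from 0.06304 to 0.06501 by edgeR) or with library totals as scaling (0.0561), and remained between 0.32 and 0.48 on the log2 scale in those fits. The log2 ratio of RpS19b over RpS19a, computed with 0.5 added to each count, differed among the 3 groups in a permutation test, exact over all assignments of the 9 libraries (p = 0.0143, unadjusted over the 2 pairs to which it could be applied). RpS19b had no count in IgG, where the ratio is set by the added 0.5, so this test restates the missing reads. IP and Input overlapped (two-sided exact permutation p = 0.4), in a comparison of 3 libraries against 3 that cannot give a p under 0.1. With permutation only within replicate numbers the test of 3 groups gave an exact p of 0.0556.

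RpL22 and RpL22-like were further apart. RpL22 (FBgn0015288) lies at chrX:762560-765130 on the minus strand, with 3 coding exons. Of its 1100 exonic bases, 377 are shared on the same strand with the non-coding gene lncRNA:CR42491, so its counts are uncertain to that extent. RpL22-like (FBgn0034837), a gene with a single coding exon, lies at chr2R:23246610-23247893 on the minus strand. RpL22 had 14215, 11773 and 14030 counts in Input and RpL22-like had 0, 3 and 2. In pooled Input counts RpL22 thus exceeded its copy 8964-fold per kb (5780-fold without Input replicate 1). The 95% counting interval was 3841 to 27610. This fold rests on 5 counts of RpL22-like, whose mean of 0.039 CPM could not be told from 0 in a single library. With the shared bases left out of the length of RpL22 but all its counts kept, the fold was 13640. This length was chosen after seeing the data, and no counts over the unshared bases alone were made. No read of RpL22-like was found in IgG. In IP it had 0, 0 and 8 counts, all of them in replicate 3 (95% interval 3.45 to 15.8). With so few reads a change of RpL22-like was not detectable at this depth, and the 3-group permutation test of the pair's ratio gave an exact p of 0.607 with 0.5 added to each count and 0.0107 with 5 added, so that its outcome depended on the added count.

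RpL22 was lower after either pulldown. It had 5428, 3146 and 5050 counts in IgG and 4235, 3704 and 2998 in IP. On the CPM scale it went from 308 ± 17.7 in Input to 131.3 ± 23.2 in IgG and 88.44 ± 22.2 in IP. The highest IP library (111.4 CPM) lay below the lowest IgG library (117.5). The log2 change was -1.81 for IP over Input (SE 0.175, adjusted p = 0.0001242 by edgeR) and -1.23 for IgG over Input (SE 0.132, adjusted p = 0.003031 by edgeR). For IP over IgG it was -0.54 (SE 0.208) and not called (adjusted p = 0.135 by edgeR). That comparison was called with all 9 libraries in one fit (adjusted p = 0.04829 by edgeR) and with the replicate number as a block (0.01165, and 0.04549 with length correction).

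RpL10A was the pair without a single read of one copy. RpL10Aa (FBgn0038281), a gene with a single coding exon at chr3R:15037366-15038149 on the plus strand, had 0 counts in all 9 libraries. RpL10Ab (FBgn0036213) lies at chr3L:11822851-11824211 on the plus strand with 3 coding exons, and 5 of its exonic bases lie opposite an exon of CG32095. RpL10Ab had 43544, 38390 and 49942 counts in Input. Against a floor of 3 counts over the group, it was at least 35900-fold above RpL10Aa per kb in Input (22300-fold without Input replicate 3), at least 20810-fold in IgG and at least 10370-fold in IP.

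RpL10Ab fell from Input to IgG to IP. It had 24756, 15058 and 36641 counts in IgG and 13122, 12597 and 12383 in IP. Its level was 1012 ± 42.9 CPM in Input and 713.8 ± 148 in IgG, and IP libraries held 305.8 ± 35.2, with no overlap between groups. The log2 change was -1.73 for IP over Input (SE 0.081, adjusted p = 1.462e-07 by edgeR) and -1.20 for IP over IgG (SE 0.158, adjusted p = 0.002698 by edgeR). For IgG over Input it was -0.51 (SE 0.149) and just past the threshold (adjusted p = 0.04955 by edgeR). That call was lost when any Input library or IgG replicate 1 was left out (adjusted p from 0.09468 to 0.1461 by edgeR), and with DESeq2's size factors (0.0557).

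RpS10a (FBgn0027494) lies at chr3R:27652760-27653363 on the plus strand, within the gene tau on the opposite strand but clear of its exons. It had 2, 2 and 6 counts in Input and 0 in each IP library. In IgG it had 0, 0 and 202 counts, so that all IgG reads came from replicate 3 (95% interval 175 to 232). No group showed this level in more than 1 library, and RpS10a did not pass the filter on low counts. Counts of tau were 127, 153 and 48 in IgG, and any part of tau in the RpS10a reads was not tested. RpS10b, its sister copy, lies at chrX:19598031-19599806 on the plus strand and was not analysed here.

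Considering the set as a whole, 4 of the 7 copies with a row passed the filter, and the other 3 (RpS10a, RpL22-like and RpL10Aa) were not tested. From Input to IP, 3 of the 4 were called lower and none higher, where 30.8% of all tested genes were called lower and 59.2% in either direction. From IgG to IP, 2 of the 4 were called lower and none higher, against 3.2% of all tested genes called lower, 4.77% higher and 7.96% in either direction. From Input to IgG, 3 were called lower and RpS19a higher, against 16.6% and 10.3% of all tested genes. The CPM values of IP and Input did not overlap for 3 of the 4 copies, against 66.7% of all tested genes. IP and IgG did not overlap for any of the 4, against 33.1% of all tested genes, nor did IgG and Input, against 47.9%. These counts include RpS19b, which had no read in IgG and passed the filter through its Input libraries. Its call and its lack of overlap between IgG and Input are therefore partly set by that filter. When libraries were scaled by their totals, the IP over IgG calls of all genes split into 1028 higher and 165 lower in place of 419 and 281. With a correction for gene length they split into 81 and 184. The IP over Input calls split into 2944 higher and 2313 lower by totals, in place of 2501 and 2705. The IgG over Input calls split into 605 higher and 1737 lower by totals, in place of 908 and 1456. The 3 comparisons share libraries and are not independent of one another.

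The fall of the abundant copies in IP was shared with other ribosomal protein genes. Of 65 single-copy ribosomal protein genes, 64 were called lower in IP than in Input and none higher, with a median log2 fold change of -1.42 where the median of all tested genes was 0.01. Against IgG, 64 were called lower, with a median of -1.16. The lowest for IP over Input were RpL38 (-3.05), RpL36A (-2.75) and RpLP2 (-2.44), which encode proteins of the large subunit. At the other end stood RpL3 (0.21, not called, adjusted p = 0.06332 by edgeR), RpL35A (-0.22) and RpS13 (-0.41). RpS19a fell less than 61 of these 65 genes. RpL22 fell more than 51 and RpL10Ab more than 45. In IgG over Input, RpL22 had a lower log2 fold change than each of the 65 genes, whose median was -0.19. These ranks are descriptions and were not tested. RpL24-like and RpLP0-like, assembly factors named after ribosomal proteins, had log2 fold changes of -0.54 and -0.25 for IP over Input, both called, and RpL24-like was also called for IP over IgG (-0.64). Of the counts of ribosomal protein genes, the 7 copies took 2.612 to 2.693% in Input libraries, 2.836 to 2.949% after the IgG pulldown and 2.962 to 3.253% in IP, without overlap between groups. This share followed RpS19a and not each copy. Pooled counts of RpS19a were 134108 in Input, 148728 in IgG and 94103 in IP. Those of RpL10Ab were 131876, 76455 and 38102, and those of RpL22 were 40018, 13624 and 10937. All ribosomal protein genes took 8.855 to 9.094% of all counts in Input, 6.216 to 8.123% after the IgG pulldown and 3.746 to 4.299% in IP.

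**Figure D3:**
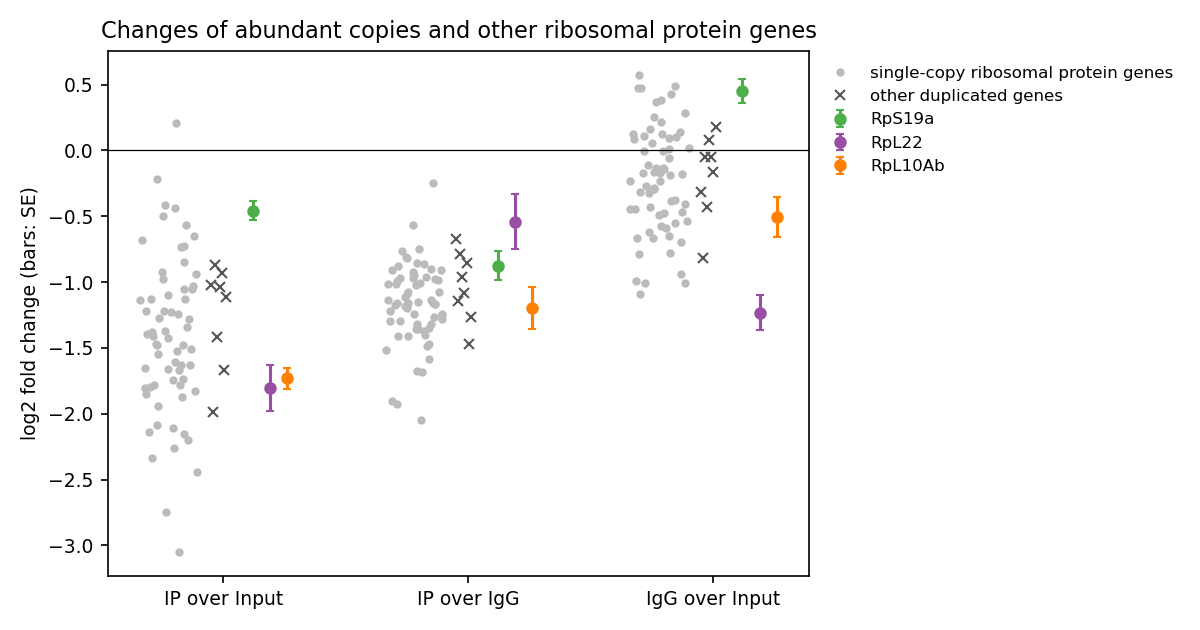
Log2 fold change in the 3 comparisons for the 3 abundant copies (coloured points, bars for the SE of the fit), 65 single-copy ribosomal protein genes (grey dots) and 8 other duplicated ribosomal protein genes (crosses). In IP over Input RpS19a lay near the upper edge of the single-copy genes, whereas in IgG over Input RpL22 lay below all of them.

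Other duplicated ribosomal protein genes included pairs with 2 abundant copies and pairs with 1. Of 11 such genes with a row, 8 were tested, and all 8 were called lower in IP than in Input, with a median log2 fold change of -1.08. Against IgG, 7 were called lower, with a median of -1.02. Both RpL34 genes were abundant, with 498 ± 7.31 CPM for RpL34b and 211.1 ± 7.61 for RpL34a in Input (SD, n = 3). RpL34b had a log2 fold change of -1.99 in IP over Input and RpL34a -1.03, and both were called. RpS14a and RpS14b were both abundant too (389.5 ± 26.3 and 229.6 ± 5.87 CPM), but 22.3% and 35.1% of their stretches of 50 bases occurred in the other copy, so their counts are uncertain. Their log2 fold changes were -0.87 and -1.42. RpS15Aa had 1004 ± 26.9 CPM and RpS15Ab 20.43 ± 1.62, with 17.8% and 26.1% of stretches shared, and log2 fold changes of -0.93 and -1.02. RpS28b had 880.2 ± 33.3 CPM and RpL37-1 1235 ± 69.4, whereas RpS28a, RpS28-like and RpL37-2 had 2, 0 and 1 counts over the Input libraries and shared no stretch of 50 bases with an abundant copy where this was examined. RpS28b and RpL37-1 had log2 fold changes of -1.67 and -1.12. The pyrimidine run at the start was 11 and 15 bases in RpL34b and RpL34a, 10 in RpS28b, 4 in RpS28a and in RpS28-like and 22 in RpL37-1. It was 9 in the rare RpL37-2 and 2 in the abundant RpS15Aa, so a long run did not mark abundant copies throughout.

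The genes most like RpS19b across the 9 libraries were sought next. Among 6351 genes of at least 10 CPM, the log2 CPM of RpS19b was most like that of pds5 (Pearson's r = 0.981), AGO2 (0.979) and CG10731 (0.971). RpS19a had r = -0.687 with it. The RpS19b pattern rests on a few counts and on the 3 zeros of IgG. These values describe 9 libraries in 3 groups, which also share depth and pulldown.

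The libraries held 30533376 to 47080956 counts, so that 3 counts stood for 0.0636 to 0.112 CPM. All 9 germline markers looked up were present in every library, with 3739 to 3979 summed CPM in Input, 3586 to 3882 in IgG libraries and 3672 to 4302 in IP. These sums hid single markers that moved in opposite directions. Counts of bam were 1818, 1807 and 2145 in Input, 645, 310 and 884 in IgG and 492, 484 and 364 in IP. AGO3 was lower in IgG and IP too. Counts of bcd were 3701, 3354 and 3904 in Input, 7792, 6352 and 8633 in IgG and 13866, 13452 and 13174 in IP. Of 10 somatic ovary markers, 9 had a row, with 15040 to 15680 summed CPM in Input, 23960 to 28070 after IgG and 21510 to 22880 in IP. This sum too hid markers that moved in opposite directions. Counts of Cp36 were 120744, 99995 and 174317 in Input and 86663, 93546 and 131163 in IP. Those of Vm26Aa were 168036, 147486 and 164107 in Input and 252236, 302954 and 321640 in IP. Of 8 muscle markers, 7 had a row, with 219.8 to 406.9 summed CPM in Input, 511.9 to 2456 after IgG and 115.1 to 793.2 in IP. Fat body markers summed to 10.6 to 24.2 CPM in Input, 18.8 to 109.3 after IgG and 32.1 to 72.6 in IP. Of 7 testis markers, dj and ProtA were at 0 in all libraries and bol, which the ovary also expresses here, made up most of the sum (6.4 to 14.0 CPM). The 3 gut markers summed to at most 0.747 CPM. The part of other cell types in the members' differences was not tested.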

How the data were processed

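For each library the authors deposited a table of counts, whole and not normalized, by FlyBase gene ID. The submitters' processing notes name HISAT2 2.1.0, featureCounts 1.4.6 and the dm6 build. The methods of the paper concern other experiments, and the treatment of strand, multiply mapped reads and overlapping genes was not given in the sources used here. Libraries were directional and made from poly(A) RNA fragmented for 13 minutes. Names, exon lengths and positions came from Ensembl's BDGP6 annotation, which named 16647 of 17024 IDs. Sequences were cut from the RefSeq copy of the same assembly.

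Each pair of groups was fitted with edgeR 4.0.16 in R 4.3.3 (TMM scaling, robust quasi-likelihood, two-sided) on genes passing its filter (a minimum count of 10 in 3 libraries), which left 8789 and set aside 8235. The script was tested on simulated data. CPM values are scaled by TMM. Pair ratios were log2 of count plus 0.5 per kb of the union of exons, compared with exact permutation tests. The 95% intervals (Poisson, or exact binomial for folds between copies, from scipy 1.17.1) cover counting error only. Floors of 3 counts cover only the counting error of the copy or group at 0. Nothing in the labels says that replicates came from separate animals or cultures, so p-values measure the spread between these libraries. The titles give the groups the same replicate numbers. Deviations from group means of same-numbered libraries correlated with r = 0.249, 0.285 and 0.353 for IP and Input, over the 0.1 taken as a pairing. For IP and IgG (0.0612, 0.0366 and 0.176) and for IgG and Input (0.0915, 0.0908 and 0.171) only replicate 3 passed it. The primary fits had no block.

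The members and lists were chosen with earlier results of these data known. By rule, the named genes were all members, the 3 single-copy genes at either end for IP over Input, the duplicated genes that were tested, and the 3 genes most like RpS19b. Another pair is not reported here. RpL22-like had too few counts for a likeness. The untested duplicated genes, the assembly factors and tau were named after their values were seen. Alternatives were DESeq2 1.42.0, other scalings, filters, gene lengths and pseudocounts, a joint fit, a replicate block, a loess correction for gene length, removal of the feature FBgn000003, a stricter threshold and each replicate left out. A block with length correction, and lengths without exons shared with other genes, were added after seeing the data.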

Additional observations from a re-analysis of the deposited data

How the results depend on the processing

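The 3 members called for IP over Input stayed 3 under each alternative run, except 4 without IP replicate 3. The 2 called for IP over IgG were 4 with all 9 libraries in one fit, 3 with the replicate block (with or without length correction) and 2 otherwise. For IgG over Input, 4 were called, 1 at an adjusted p under 0.01, and 1 to 4 with a replicate left out. The log2 ratio of RpS19b over RpS19a in Input was -9.94 per longest transcript, -10.45 per coding length and -10.46 without length, against -9.54. The bound on RpL10Ab over RpL10Aa ran from 22300 to 25450 with an Input replicate left out, since fewer reads remain. With 5 added to each count, the change of the RpS19 ratio was 2.28 for IP over IgG and -2.96 for IgG over Input, in place of 5.001 and -6.09.

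The replicate block changed no call of a member for IP over Input. It made RpL22 called for IP over IgG (-0.56, adjusted p = 0.01165 by edgeR), lost RpS19b for IgG over Input (adjusted p = 0.2311 by edgeR), and gave an exact permutation p of 0.0556 for the RpS19 ratio. Among single members, 17 alternatives lost a call and 5 gained one, and none turned a direction. The cause was not tested. RpS19a and RpS19b lost their IgG over Input calls when any Input library was left out (adjusted p from 0.06077 to 0.06501 by edgeR). Over all genes, the count called for IP over Input was 5206, and 2778 with all 9 libraries in one fit. For IP over IgG it was 700, from 265 with length correction to 2014 in one fit, and for IgG over Input 2364, from 446 without Input replicate 1 to 3306 without IgG replicate 1. Scaling by totals moved the median of all genes to 0.22 for IP over IgG and -0.14 for IgG over Input. A level under about 0.1 CPM could not be told from 0 at this depth.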
